A study of Mus musculus with 3 samples.

Results

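The genes of 5 hormones and growth factors that cells secrete under stress, Fgf21, Gdf15, Stc2, Vegfa and Adm2, were examined for chromatin binding of the transcription factors ATF4 and CEBPG. They were chosen by name out of 21883 protein-coding genes, and a peak was assigned to a gene when it touched the gene span or the 20 kb on either side. The cells were wild-type mouse embryonic fibroblasts of strain C57BL/6, taken at E13.5. All of them had been plated for 24 hours and then kept in amino acid deprived (AAD) medium for 3 hours, so the chromatin of unstarved cells was not compared. Chromatin immunoprecipitation and sequencing (ChIP-seq) was done once with an ATF4 antibody (2642 peaks) and once with a CEBPG antiserum (25419 peaks). A GFP antibody library of the same cells was not analysed here. With 1 library per antibody there is no spread between cultures, so the values below are descriptions of these peak lists and carry no test. Library depth is unknown, and peak lists give no expression, so the fibroblast label could not be set against marker genes.

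When amino acids run short, the kinase GCN2 phosphorylates the initiation factor eIF2, and the mRNA of ATF4 is then translated more efficiently. ATF4 is a basic leucine zipper protein that pairs with C/EBP family members, CEBPG among them, and binds composite sites that join a C/EBP and an ATF recognition sequence. Several secreted factors are known from other work to be induced through this route, and they carry the stress of a cell to other tissues. FGF21 is an endocrine fibroblast growth factor that acts on receptors paired with beta-klotho. GDF15 signals through GFRAL and RET in the hindbrain and lowers appetite. ADM2 (intermedin) is a peptide of the calcitonin family that acts through the calcitonin receptor-like receptor. STC2 is a stanniocalcin, a secreted glycoprotein that inhibits the protease PAPP-A, and VEGFA is the main growth factor of blood vessels.

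The 250 bases upstream of the most upstream annotated start are shown for each gene because they include the one place where a CEBPG peak covered the promoter itself. Sequences are from RefSeq (GRCm38.p6, the assembly also named mm10) and read 5′ to 3′ on the gene's strand. Capitals mark matches to any of 6 motifs searched on both strands. These were TGATGNAA (C/EBP-ATF composite), TTGCNNAA with its special case TTGCGCAA (C/EBP), TGACGTCA (cAMP response element), TGANTCA (AP-1) and CCAAT. The stretches are chr7:45615491-45615740, chr8:70632457-70632706, chr11:31370062-31370311 and chr17:46032378-46032627 on the minus strand, and chr15:89322470-89322719 on the plus strand.
Fgf21: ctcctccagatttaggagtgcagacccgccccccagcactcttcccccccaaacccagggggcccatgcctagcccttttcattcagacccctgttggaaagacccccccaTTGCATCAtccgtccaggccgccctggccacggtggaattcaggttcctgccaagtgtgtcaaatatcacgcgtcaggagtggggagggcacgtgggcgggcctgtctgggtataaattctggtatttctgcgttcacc
Gdf15: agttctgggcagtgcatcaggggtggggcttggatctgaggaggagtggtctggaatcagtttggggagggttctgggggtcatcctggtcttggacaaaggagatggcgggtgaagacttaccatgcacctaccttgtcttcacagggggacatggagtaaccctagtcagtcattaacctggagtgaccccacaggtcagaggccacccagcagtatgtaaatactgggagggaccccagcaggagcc
Adm2: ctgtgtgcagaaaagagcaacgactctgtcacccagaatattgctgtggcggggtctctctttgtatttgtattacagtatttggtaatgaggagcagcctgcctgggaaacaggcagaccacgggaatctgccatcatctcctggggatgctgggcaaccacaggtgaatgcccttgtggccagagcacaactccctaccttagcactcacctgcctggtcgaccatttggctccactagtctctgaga
Stc2: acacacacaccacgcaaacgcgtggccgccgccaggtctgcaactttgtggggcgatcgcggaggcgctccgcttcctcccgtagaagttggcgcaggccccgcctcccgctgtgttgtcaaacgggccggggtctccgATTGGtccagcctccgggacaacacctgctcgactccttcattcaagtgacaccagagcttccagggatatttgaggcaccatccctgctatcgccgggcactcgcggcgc
Vegfa: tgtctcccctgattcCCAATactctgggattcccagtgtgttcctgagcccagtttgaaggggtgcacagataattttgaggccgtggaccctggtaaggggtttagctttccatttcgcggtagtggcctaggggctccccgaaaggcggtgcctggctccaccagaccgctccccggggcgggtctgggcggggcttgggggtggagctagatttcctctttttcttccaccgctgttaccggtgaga

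The composite motif stood in the Fgf21 stretch alone. It read TTGCATCA on the gene's strand, a match to TGATGNAA on the other strand, at -139 to -132 from the start (chr7:45615622-45615629). A CEBPG peak covered 216 of the 250 Fgf21 bases, the motif included, and no ATF4 peak touched them. Neither list had a peak on the other 4 stretches. The Stc2 and Vegfa stretches held 1 CCAAT each, at -111 and -235, and the Gdf15 and Adm2 stretches held none of the 6 motifs. In 300-base windows that reach 50 bases past a start, and with the second starts of Gdf15 and Vegfa included, the 7 windows of these genes gave no further match except 1 CCAAT at each second start. Of all 32817 promoter windows in the table, 3.97% held the composite motif, 10.8% TTGCNNAA, 0.183% TTGCGCAA, 1.79% TGACGTCA, 7.81% TGANTCA and 37.4% CCAAT. A match describes the letters and does not show a bound site.

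Across both lists, 7 peaks lay in the windows of the 5 genes, 1 from ATF4 and 6 from CEBPG. An ATF4 peak was found at 1 gene, Fgf21, against 7.44% of all protein-coding genes. CEBPG peaks were found at 4 genes, Fgf21, Gdf15, Adm2 and Stc2, against 43.7% of all protein-coding genes. At Fgf21 the ATF4 peak lay on a CEBPG peak, a combination seen at 1.78% of protein-coding genes. Vegfa had no peak of either list in its window. The peak score is the authors' own value, read from the end of each peak's name, and it ranks peaks within a list only.

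Fgf21 (NCBI gene 56636, chr7:45613890-45615490, minus strand, 1601 bp) had the most peaks of the 5, with 3, all upstream of the gene or across its start. Its ATF4 peak (chr7:45616310-45616754) scored 165.67 and was centred 1042 bp upstream of the start. It ranked 58th of the 2642 ATF4 peaks, in the top 2.2% of the list. A CEBPG peak of score 858.84 (chr7:45616171-45616801) contained all 445 bp of it, with the centres 46 bp apart. That CEBPG peak ranked 363rd of 25419, in the top 1.43%. The second CEBPG peak, of score 112.07 (chr7:45615452-45615706), was the one across the start, centred 89 bp upstream of it, and 464 bp separated it from the stronger one. Fgf21 was thus the one gene of the group where both factors were mapped to the same site, and that site was the upstream one, whose sequence is not in the promoter table.

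**Figure D1:**
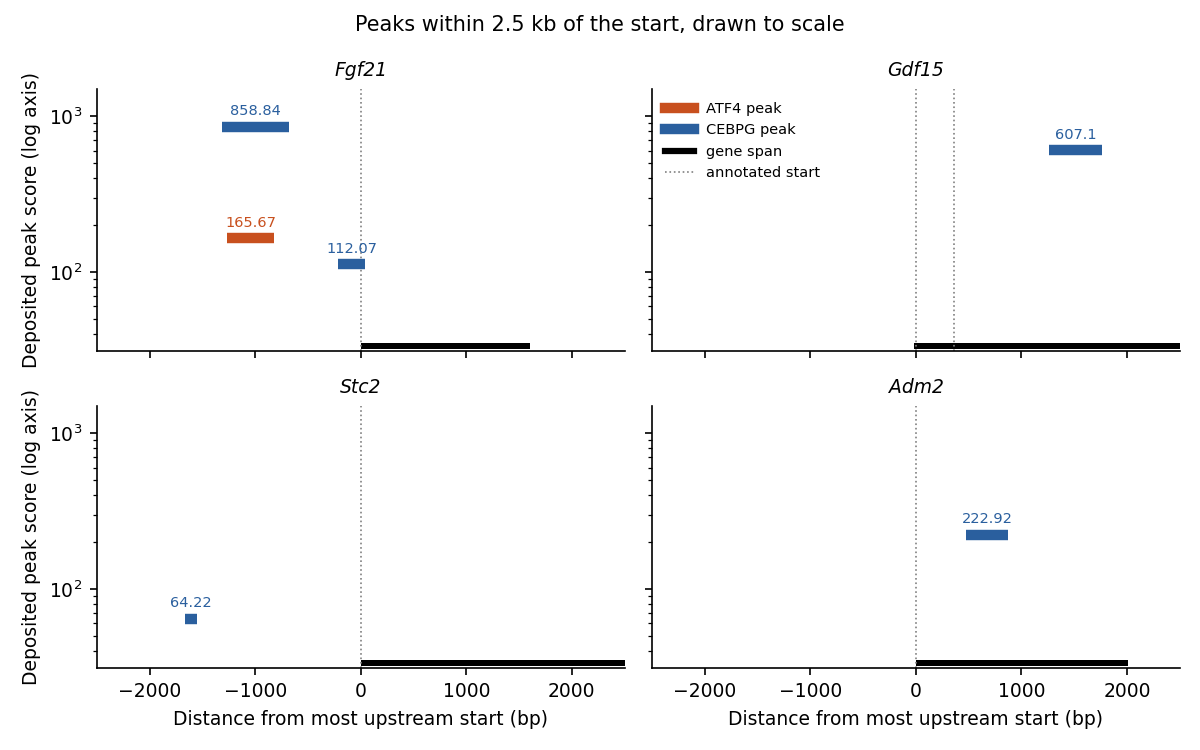
Peaks within 2.5 kb of the most upstream annotated start of Fgf21, Gdf15, Stc2 and Adm2, where the x axis is the distance from that start in bp (negative is upstream), the y axis the deposited peak score on a log axis, bars are peaks drawn to scale (orange ATF4, blue CEBPG), the black line is the gene span and dotted lines are annotated starts. The ATF4 peak of Fgf21 (165.67) sits within the extent of the CEBPG peak of 858.84, and the other 3 genes show CEBPG peaks alone.

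Among genes, Fgf21 stood high in both lists. By the top ATF4 score in the 20 kb window it ranked 67th of the 1628 protein-coding genes with an ATF4 peak, and by the top CEBPG score 341st of the 9558 with a CEBPG peak. An ATF4 peak centred within 2 kb of an annotated start was rare, at 152 of 17491 genes with a start in the table (0.869%), and one that also lay on a CEBPG peak was at 63 genes (0.36%). Fgf21 was 14th by score among genes with an ATF4 peak this close to a start. The 2 kb limit was set after the positions had been seen, so these start-based values are descriptions and give no support. The same 3 peaks also fell in the windows of 3 neighbouring genes, Fut1, Izumo1 and Rasip1. The start nearest to each of the 3 peaks was that of Fgf21, while the ATF4 peak's centre was 1074 bp from the edge of Fut1, a fucosyltransferase gene. Which gene the site acts on was not tested.

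Gdf15 (NCBI gene 23886, chr8:70629393-70632470, minus strand, 3078 bp) carried the second-highest CEBPG score of the group and no ATF4 peak. The CEBPG peak of score 607.1 (chr8:70630693-70631198) lay inside the gene, centred 1150 bp downstream of the nearer of its 2 annotated starts and 1511 bp from the other. Whether it fell in an exon or an intron could not be told, because the gene table gives spans without exons. It ranked 525th of 25419, in the top 2.07%, and by this score Gdf15 was 483rd of the genes with a CEBPG peak. The 200 CEBPG peaks nearest to this peak in score rank, 100 on either side, scored 520.85 to 741.57. Of these, 44 lay on an ATF4 peak (22.0%, 95% Wilson interval 16.8 to 28.2%, counting error only). A CEBPG peak of this score without an ATF4 peak was thus the commoner case. Among all 25419 CEBPG peaks such overlap was rarer still, as 400 ATF4 peaks in all lay on a CEBPG peak. A second CEBPG peak of score 285.33 (chr8:70646846-70647194) lay 14.4 kb from the gene on its upstream side. It fell inside Pgpep1, a peptidase gene, 12718 bp from that gene's start.

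Adm2 (NCBI gene 223780, chr15:89322720-89324731, plus strand, 2012 bp) had a single CEBPG peak, also inside the gene, and no ATF4 peak. The peak (chr15:89323196-89323597) scored 222.92, was 402 bp wide and was centred 676 bp downstream of the start. It ranked 1519th of 25419, in the top 5.98% of the list. Among the 200 CEBPG peaks nearest in score rank, 13 lay on an ATF4 peak (6.5%, 95% Wilson interval 3.84 to 10.8%). The nearest other coding gene, Sbf1, was 8085 bp from the peak centre.

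Stc2 (NCBI gene 20856, chr11:31359441-31370061, minus strand, 10621 bp) had the weakest CEBPG peak of the 4 bound genes. The peak (chr11:31371612-31371724) scored 64.22, was 113 bp wide and was centred 1607 bp upstream of the start. It ranked 4888th of 25419, and 19.3% of the list scored as high or higher. Of the 200 CEBPG peaks nearest in score rank, 1 lay on an ATF4 peak (0.5%, 95% Wilson interval 0.0883 to 2.78%). No other coding gene lay in the window, and the nearest one, Asb3, was 269 kb from the peak.

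Vegfa (NCBI gene 22339, chr17:46016993-46032377, minus strand, 15385 bp) is the longest of the 5 genes and was the only one of them with no peak in its window. No peak of either list touched its span, its 2 annotated starts or the 20 kb on either side. The nearest peaks formed a cluster 41.4 to 42.8 kb upstream. There an ATF4 peak of score 44.93 (chr17:46073980-46074191) lay entirely inside a CEBPG peak of score 307.14 (chr17:46073776-46074260), with the centres 67 bp apart, and a further CEBPG peak of score 200.02 followed after 911 bp. The ATF4 score was just under the median of its list (45.88), and 56.1% of ATF4 peaks scored as high or higher. The CEBPG score of 307.14 ranked 1124th of 25419, in the top 4.42%. The nearest gene start to the cluster was that of Mrps18a, a mitochondrial ribosomal protein gene, 36919 bp from the ATF4 centre and so nearer than the Vegfa start at 41708 bp.

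**Figure D2:**
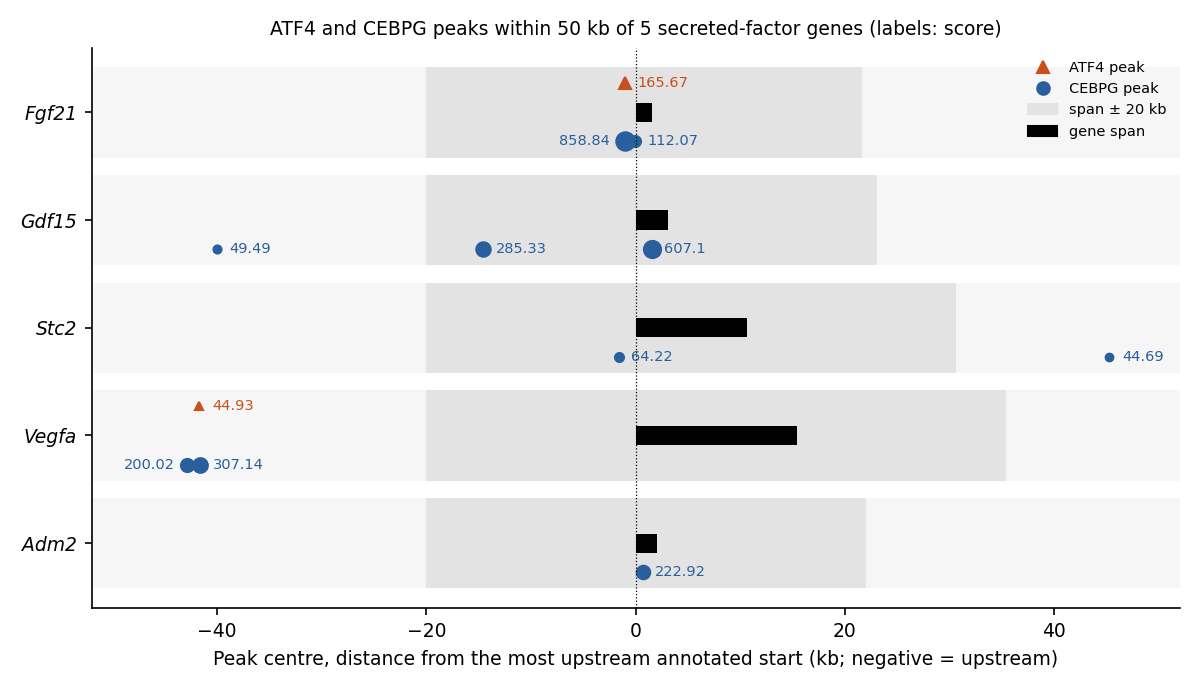
Peaks within 50 kb of the 5 genes, where the x axis is the distance in kb from the most upstream annotated start. Triangles are ATF4 peaks and circles CEBPG peaks, with their scores beside them and larger symbols for higher scores. Light grey, over a paler row band, is the gene span with 20 kb on either side, and black is the span. Fgf21 has both kinds of peak in the window, Gdf15, Stc2 and Adm2 have CEBPG peaks in it, and the cluster near Vegfa lies outside it.

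The order of the genes by top CEBPG score was Fgf21 (858.84), Gdf15 (607.1), Adm2 (222.92) and Stc2 (64.22), with no peak at Vegfa. With no replicate, it cannot be said which neighbours in this order differ beyond the spread between cultures. Scores of 100 or more were reached at 3 of the 5 genes, Fgf21, Gdf15 and Adm2, against 10.9% of all protein-coding genes. The CEBPG peaks were close to starts. At 4 of the 5 genes one was centred within 2 kb of an annotated start, against 6.56% of the 17491 genes with a start in the table, and at 3 of the 5 such a peak scored 100 or more, against 1.84%. The 2 kb limit was set after the positions had been seen, so these last counts describe the positions and do not support them.

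**Figure D3:**
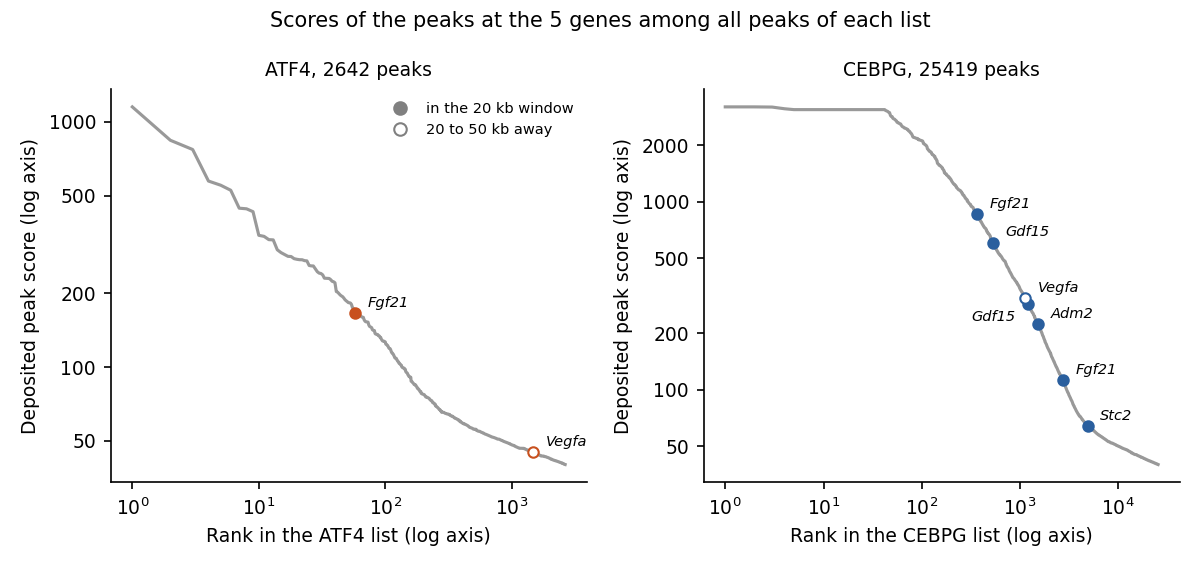
Score against rank for all ATF4 peaks (left) and all CEBPG peaks (right), both axes logarithmic, where filled points are peaks in the windows of the 5 genes and open points the overlapping pair upstream of Vegfa, outside its window. The ATF4 peak of Fgf21 lies at rank 58, and the CEBPG peaks run from rank 363 (Fgf21) to rank 4888 (Stc2).

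The counts were also taken with narrower and wider windows. Within the gene span alone, 0 of the 5 genes had an ATF4 peak and 3 had a CEBPG peak, Fgf21, Gdf15 and Adm2, against 3.94% and 23.4% of all protein-coding genes. With 5 kb on either side the counts were 1 and 4, against 4.94% and 29.9%. With 50 kb on either side they were 2 and 5, since the cluster upstream of Vegfa then fell inside, against 12.0% and 62.5%. The wider window also took in a CEBPG peak 40000 bp from Gdf15 (49.49) and another 34591 bp from Stc2 (44.69). Overlapping peaks were at 0, 1 and 2 of the genes in these 3 windows, against 0.804%, 1.13% and 2.95%.

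**Figure D4:**
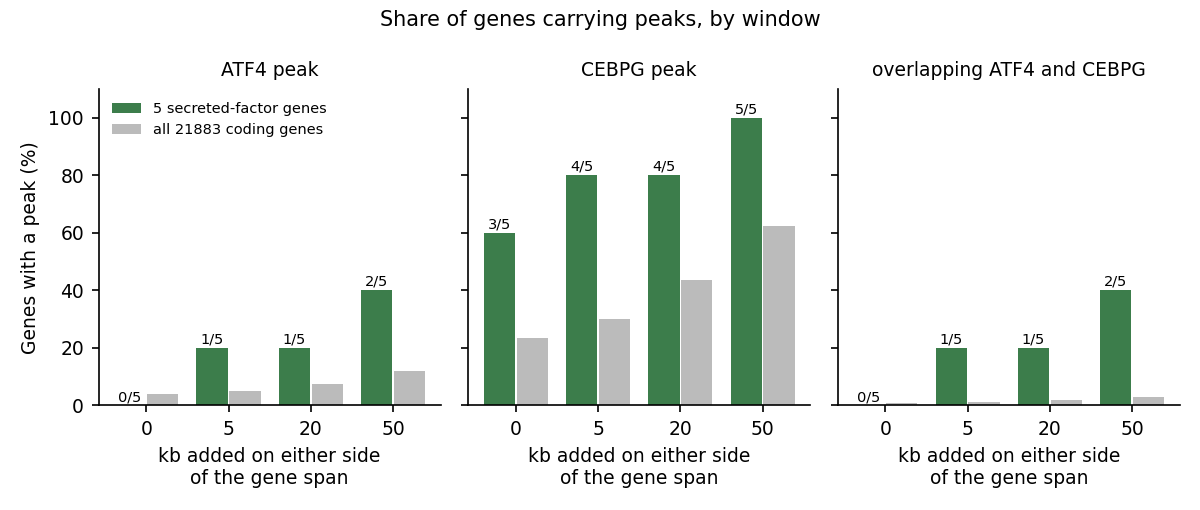
Share of genes with an ATF4 peak, a CEBPG peak or overlapping peaks, by the number of kb added on either side of the gene span, where green bars are the 5 secreted-factor genes with their counts, grey bars all 21883 protein-coding genes. CEBPG peaks were at 4 of 5 genes with 20 kb added, where 43.7% of all genes had one.

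The composite motif under the CEBPG peak at the Fgf21 start was set beside other promoter windows under peaks. Of 33 windows touched by peaks of both lists, 19 held it (57.6%, 95% Wilson interval 40.8 to 72.8%). Those 33 were part of the 48 touched by an ATF4 peak, of which 20 held it (41.7%, 28.8 to 55.7%). Nearly all ATF4-touched windows with the motif thus came from the 33. Of 377 windows touched by a CEBPG peak without an ATF4 peak, the class of the Fgf21 window, 72 held it (19.1%, 15.4 to 23.4%), against 3.97% of all windows (3.76 to 4.19%). Most windows with the motif had no peak. Of 1303 such windows, 20 were touched by an ATF4 peak (1.53%) and 91 by a CEBPG peak (6.98%), against 0.146% and 1.25% of all windows. Neighbouring starts can share a peak, so the windows are not independent.

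**Figure D5:**
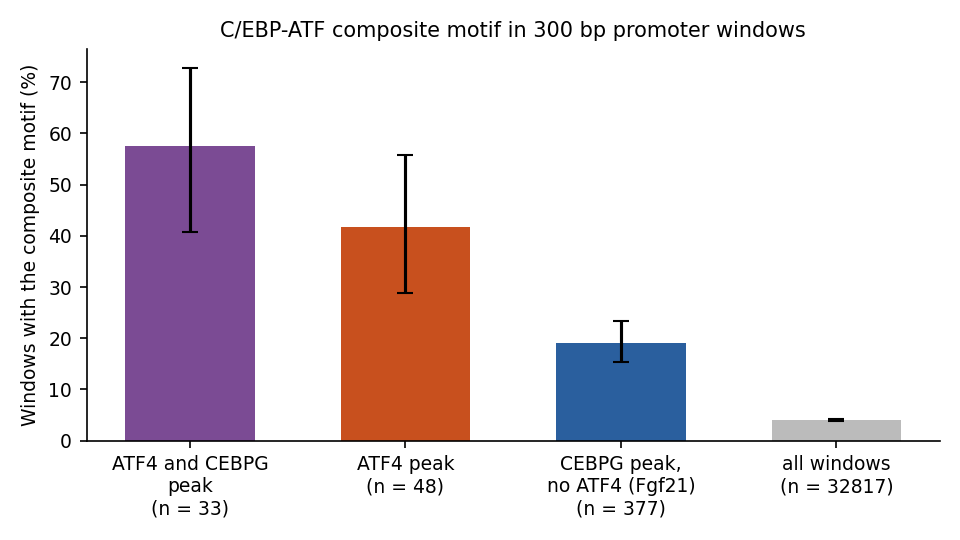
Share of 300-base promoter windows with the composite motif, for windows touched by peaks of both lists, by an ATF4 peak, by a CEBPG peak without an ATF4 peak (the class of Fgf21), and for all windows, with bars as percentages and error bars as 95% Wilson intervals of counting error. The share is 57.6% for windows touched by both and 3.97% for all windows. The windows touched by both are also counted among those touched by an ATF4 peak.

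The genes whose top scores were most like those of Fgf21 were sought among the 1154 protein-coding genes with both kinds of peak in their window. Fut1, Izumo1 and Rasip1 share the Fgf21 peaks and therefore its scores, and genes sharing a top score with Fgf21 were left out. Distance was Euclidean on the log10 ATF4 and CEBPG scores, which gives 1 value per list and gene. The nearest of the others was Ptpn5, a tyrosine phosphatase gene, with an ATF4 score of 146.62 and a CEBPG score of 941.19. Slit3, which encodes a secreted guidance protein, came next with 155.98 and 676.79. Both had overlapping peaks.

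Relatives, receptors and other secreted factors were counted in the same way, in lists written from general knowledge. Overlapping ATF4 and CEBPG peaks were at 0 genes of each of these 3 lists, against 1.78% of all protein-coding genes. Lists this short cannot tell 0 from that share. Of 11 close relatives, 0 had an ATF4 peak and 3 a CEBPG peak (27.3%). Vegfc, a growth factor of lymphatic vessels, had the highest CEBPG score of them (367.29), inside the gene and 86.3 kb from its start. Adm, the adrenomedullin gene, had a CEBPG peak of 330.23 centred 2.48 kb downstream of its start and outside the gene span. Calca, which encodes calcitonin, had one of 68.38, centred 19.0 kb upstream of its start. Stc1, the paralog of Stc2, and Vegfb, Pgf and Vegfd of the VEGF family had no peak of either list in their windows.

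Of 13 receptors and co-receptors, 8 had a CEBPG peak (61.5%) and 2 an ATF4 peak (15.4%). The ATF4 peaks scored below the median of their list (45.88), at Kl, the klotho co-receptor of FGF23 (41.45), and Ramp1, a partner of the calcitonin receptor-like receptor (43.53). Calcrl, which encodes the receptor that ADM2 acts on, had the highest CEBPG score of the list (247.66, chr2:84425146-84425890), centred at -252 bp from its start. Klb, which encodes beta-klotho, had a CEBPG score of 72.6 and Kdr, a VEGFA receptor gene, one of 72.16. Both peaks were centred outside the gene span, 43.0 kb (Klb) and 54.3 kb (Kdr) from the start. Fgfr1 and Ret had no peak in their windows.

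Of 25 other secreted factors, 17 had a CEBPG peak (68.0%) and 3 an ATF4 peak (12.0%). Ccn2, a matricellular protein gene, scored 403.13 for CEBPG, Hgf, the hepatocyte growth factor gene, 256.43, and Bdnf, a neurotrophin gene, 221.85. The Ccn2 and Hgf peaks were centred outside the gene span, and the Bdnf peak inside it. ATF4 peaks lay near Ccn1, another matricellular protein gene (52.54 and 44.71), and near Edn1, the endothelin gene (42.07), each below the 165.67 of Fgf21. Igfbp1 and Igfbp3 were counted through the same CEBPG peak (54.92). Genes of these lists differ in length, so their shares cannot be read directly against 43.7% and 7.44% of all protein-coding genes. CEBPG scores of 100 or more were at 2 of the 11 close relatives, 1 of the 13 receptor genes and 6 of the 25 other secreted factors. The share of all protein-coding genes was 10.9%, with the same limit from gene length.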

How the data were processed

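Both deposited peak lists were used, ATF4 and CEBPG, each from 1 library of 36 bp single-end reads, per the labels' protocols. Per the submitters' processing notes, the tools were HOMER, MACS 1.4.2, BWA and Trimmomatic and the build was mm10. Their settings, and any use of the GFP library as background, are not given in the sources used here. The deposited score was read from the end of each peak name (column 4), starts at 40 and is not comparable between lists. Depth is unknown. Gene spans, and starts for 17491 of 21883 protein-coding genes, came from RefSeq tables of GRCm38.p6, the same assembly. Positions are 1-based. Overlap meant at least 1 shared base. Intervals are 95% Wilson intervals.

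The members, lists and motifs were chosen with earlier results of these data known. Named genes were the 5 members, neighbours nearer to a peak than the member, listed genes with an ATF4 peak or among the 3 highest CEBPG scores of their list, and the 2 genes nearest to a member in both scores. Neighbours to which no peak was nearer than to the member (Fut1, Izumo1, Rasip1, Sbf1 and Asb3), and listed genes with no peak or a shared one, were named after their values were seen. A single-gene value that this rule would name is not reported here. Window counts were checked on simulated peaks. Python 3.11.15, pandas 2.3.3, numpy 2.4.6, scipy 1.17.1 and matplotlib 3.10.9 were used. Alternatives changed the window, the score minimum, the overlap rule and the pool of genes.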

Additional observations from a re-analysis of the deposited data

How the results depend on the processing

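Of 22 alternative counts of genes with an ATF4 peak, a CEBPG peak or overlapping peaks, 18 stayed within 1.5 times the count reported, and 4 did not. With the gene span alone, 0 genes had an ATF4 peak and 0 overlapping peaks, because the peaks upstream of Fgf21 then fell outside. With 50 kb on either side, 2 genes (Fgf21 and Vegfa) had an ATF4 peak and 2 overlapping peaks. The CEBPG count ranged from 3 to 5. Stc2 was lost at scores of 100 or more and in the span alone. The distance of 2 kb from a start was chosen after seeing the data. The share of all genes with a peak depends on gene length. Among the 10258 coding genes no longer than Vegfa it was 4.51% for ATF4, 29.4% for CEBPG and 1.12% for overlapping peaks. Among all 49939 genes of the table, non-coding ones included, it was 6.02%, 37.8% and 1.27%. No paired analysis was possible because each antibody had 1 library. Depth is unknown, so a gene without a peak may have been below detection.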

Other observations

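The pair at Fgf21 combined a high ATF4 score with a CEBPG score that was low for such pairs. Of the 58 ATF4 peaks scoring as high as the Fgf21 peak or higher, 47 lay on a CEBPG peak (81.0%), and the median score of their highest-scoring CEBPG partners was 2846.8. The partner at Fgf21 scored 858.84, and 1 of the 47 had a lower one. Over all 400 ATF4 peaks on a CEBPG peak, the median partner score was 893.65, and 192 had a partner below that of Fgf21. These values were looked at after the scores were seen and carry no test.

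The overlapping pair upstream of Vegfa joined an ATF4 peak just under the median score of its list to a CEBPG peak in the top 4.42% of its own. Of the 200 ATF4 peaks nearest in score rank to its ATF4 peak (44.25 to 45.53), 11 lay on a CEBPG peak (5.5%, 95% Wilson interval 3.1 to 9.58%). Of the 200 CEBPG peaks nearest in score rank to its CEBPG peak of 307.14, 7 lay on an ATF4 peak (3.5%, 1.71 to 7.05%). Over the whole lists, 400 of 2642 ATF4 peaks lay on a CEBPG peak, out of 25419 CEBPG peaks. The share at this ATF4 score was thus below that of its list, while the share at this CEBPG score was not. The pair was one of few at these scores, and which gene it belongs to was not tested.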
